A study of Mus musculus with 12 samples.

Results

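The miR-379 to miR-410 cluster is the larger of the miRNA groups of the imprinted Dlk1-Dio3 locus of the mouse. Its members were chosen by name: every row of the count files whose stem is one of the 38 hairpins of the cluster, with any arm or copy suffix, which gave 75 of the 1978 mature miRNAs counted. Small RNA was sequenced from 4 groups of cultured mouse cells. These were embryonic stem cells (ESC) of the E14 line and trophoblast stem cells (TSC), which give rise to the placenta, each labelled either wild type with no treatment named (control) or as paused by inhibition of mTOR, the kinase that couples nutrients to growth. The labels name no inhibitor, dose, time, culture medium or feeder layer, and every ESC sample carries the name of the same line. The question of the study is how miRNAs differ once cells rest in this state, which resembles diapause, the natural arrest of the early embryo.

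The hairpins of this cluster, apart from miR-299b on the opposite strand, are made from the maternally inherited chromosome only. They come from long noncoding RNAs that run from Meg3 through Rian to Mirg. Each hairpin is cut into a 5p and a 3p arm, and an arm finds its target mRNAs mainly by its seed, bases 2 to 8. The cluster is best known from brain and placenta, and expression of the maternal noncoding RNAs of the locus is used as a mark of full developmental potency in mouse pluripotent cells.

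On GRCm38 the 38 hairpins span 34.7 kb of chromosome 12, from 109709060 (the start of miR-379) to 109743795 (the end of miR-410), and 37 lie on the plus strand. GENCODE M21 places 13 of them, from miR-382 to miR-410, inside the lincRNA gene Mirg: 4 lie wholly in an exon (miR-134, miR-485, miR-377 and miR-410), 4 overlap an exon in part and 5 lie in introns. The other 25, from miR-379 to miR-544, overlap no annotated gene other than miRNA genes. RefSeq (build GRCm38.p6) gave a mature sequence for 71 of the 75 members. It gave none for miR-376c-3p, miR-485-5p, miR-487b-3p and miR-539-3p. The 71 sequences hold 64 different seeds, so most members differ in the site they would recognise, and only 7 seeds are shared by a pair of members.

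The arms on which the results turn are shown 5′ to 3′ with the seed in capitals, because they show which of them would recognise like sites. They are the arms called higher or lower on pausing in either cell type, in chromosomal order on the plus strand, with miR-376a-3p added for its likeness to miR-376b-3p.
miR-379-5p, chr12:109709065-109709085: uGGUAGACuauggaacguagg
miR-379-3p, chr12:109709102-109709123: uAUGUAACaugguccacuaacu
miR-411-5p, chr12:109710190-109710210: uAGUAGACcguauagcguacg
miR-411-3p, chr12:109710225-109710246: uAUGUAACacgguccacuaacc
miR-380-3p, chr12:109711842-109711863: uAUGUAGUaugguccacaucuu
miR-495-3p, chr12:109718795-109718816: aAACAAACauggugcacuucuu
miR-376b-3p, chr12:109723508-109723528: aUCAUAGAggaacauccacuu
miR-376a-3p, chr12:109723824-109723844: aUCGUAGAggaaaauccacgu
miR-300-3p, chr12:109724363-109724384: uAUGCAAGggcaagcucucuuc
miR-154-3p, chr12:109738474-109738495: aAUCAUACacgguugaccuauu
miR-379-3p and miR-411-3p share the seed AUGUAAC and differ at 2 of 22 bases over their whole length. miR-379-5p and miR-411-5p differ within the seed but share its bases 3 to 8, GUAGAC. miR-376a-3p and miR-376b-3p differ at 3 of 21 bases, and miR-300-3p differs at 3 of 22 from miR-381-3p. How reads that match such near copies were assigned is not given in the sources used here, so a count on one of them may hold reads of the other.

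The pair of hairpins that opens the cluster is printed whole, with both arms in capitals, because both arms of each were counted in number.
miR-379 hairpin, chr12:109709060-109709125: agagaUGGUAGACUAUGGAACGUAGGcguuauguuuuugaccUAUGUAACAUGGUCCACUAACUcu
miR-411 hairpin, chr12:109710175-109710256: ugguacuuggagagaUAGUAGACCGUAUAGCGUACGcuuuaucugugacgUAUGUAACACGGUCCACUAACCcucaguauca
In both hairpins the 5p arm carries the stretch GUAGAC and the 3p arm the stretch AUGUAAC.

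The 12 deposited samples hold 8 distinct libraries. In every group the third file equals the second in each of 1978 values. The pair therefore entered once, which leaves n = 2 in each group. Whether the libraries of a group stem from different cultures is not stated in the labels, so their spread may be technical only. The p-values rest on a trend of that spread common to the tested miRNAs, in place of each miRNA's own spread. Disagreement between libraries on a single miRNA, such as 29 and 0 counts of miR-380-3p in control TSC, is therefore not measured by its p-value. Total counts ran from 13607 to 115492 per library. A single count is worth 12.7 to 65.0 CPM, where CPM stands for counts scaled to a common library size, with factors from the trimmed mean of M-values method (TMM). Of the 75 members, 65 had a count in some library and 26 passed the filter on low counts and were tested. The 26 held 94.4% of the cluster's counts. The other 39 with a count held 1 to 51 counts each over all libraries, and 10 members, among them both arms of miR-299b and of miR-654, had 0 counts.

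As a check on the labels, the TSC marker list (miR-322, miR-503, miR-351, miR-450b and miR-542) held 5.75% to 11.3% of counts in TSC and 0.0986% to 0.158% in ESC. The list of ESC and early embryo markers, led by the miR-290 to miR-295 cluster, held 62.5% to 65.2% in ESC and 45.7% to 56.0% in TSC. Its sum thus did not set the cell types apart as sharply. Its scarcer miR-302 and miR-367 rows did for control ESC. miR-367-3p stood at 926.5 and 1299 CPM in control ESC, 12.7 and 47.2 CPM in paused ESC and 0 CPM in every TSC library. Markers of cells that could be carried along also differed by cell type. The blood list (4 of its 7 rows had a count: both arms of miR-142a and of miR-150, with miR-223 and miR-451a at 0) held 0.486% to 1.11% in ESC and 0 to 0.0121% in TSC. The fibroblast list (15 of 20 rows with a count, in TSC mostly miR-22-3p) held 0.235% to 0.366% in ESC and 0.902% to 1.40% in TSC. Without miR-22 that order turned, to 0.132% to 0.216% in ESC and 0.0426% to 0.101% in TSC. Of the neural list 3 of 12 rows had a count, with miR-9, miR-124 and miR-137 at 0. The part of such cells in the results below was not tested, and in bulk samples fewer cells of a type and less RNA per cell cannot be told apart.

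The cluster was far more abundant in ESC than in TSC, in the control and in the paused state. It held 4.16% and 4.69% of all counts in the control ESC libraries and 5.04% and 4.47% in the paused ESC libraries. In TSC it held 0.358% and 0.336% in the control libraries and 0.161% and 0.134% in the paused libraries. Every ESC library stood above every TSC library, the shares of control and paused ESC overlapped, and both paused TSC libraries lay below both control TSC libraries. The mean share in ESC was 4.42% ± 0.376 for control and 4.76% ± 0.407 for paused cells, and in TSC it was 0.347% ± 0.0150 for control and 0.148% ± 0.0185 for paused cells (SD, n = 2). The mean share of control ESC was thus 12.7 times that of control TSC, and that of paused ESC was 32.2 times that of paused TSC. On the TMM scale these ratios were 8.54 and 31.7. The same scale set the ESC groups apart where the shares did not: the summed CPM was 37108 and 41447 before and 47027 and 43384 after pausing, a ratio of 1.15 against 1.07 by share. Since the members were chosen with results of these data known, no p is given for the sum. Counting error is smaller than the gaps: the exact 95% binomial interval was 0.324% to 0.394% in the deepest control TSC library and 0.114% to 0.2205% in the first paused TSC library. Such intervals cover counting error only, since the labels name no molecular identifiers.

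**Figure D1:**
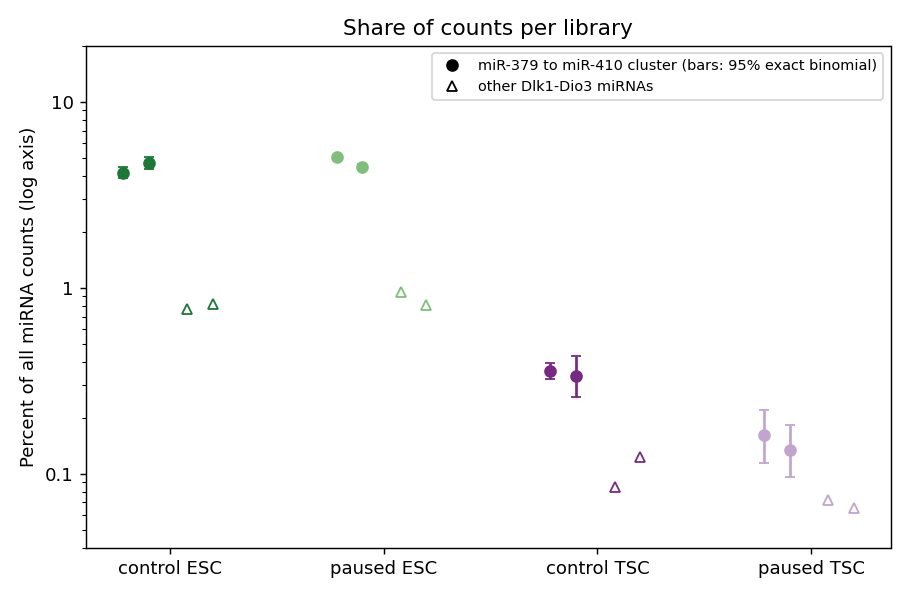
Percent of all miRNA counts on the miR-379 to miR-410 cluster (filled circles, bars are exact 95% binomial intervals) and on the other Dlk1-Dio3 miRNAs (open triangles), 1 symbol per library, on a log axis. The 4 ESC libraries lie at 4.16% to 5.04% for the cluster, and the TSC libraries lie at 0.134% to 0.358%.

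The other miRNAs of the locus, which lie nearer to Meg3, in antisense to Rtl1 and in Rian, followed the same order of groups at a lower level. Their list of 31 rows, of which 7 were tested, held 0.795% ± 0.0300 of the control ESC counts and 0.877% ± 0.0996 of the paused ESC counts, beside 0.104% ± 0.0268 for control TSC and 0.0687% ± 0.00444 for paused TSC (SD, n = 2). For each count on this list the cluster had 5.54 counts in control and 5.41 in paused ESC, and 3.93 in control and 2.14 in paused TSC. That last ratio rests on 79 counts against 37. The cluster was thus the larger part of the locus in every group. All 7 tested neighbours were called higher in ESC in both states, where 33.5% (control) and 37.4% (paused) of all 206 tested miRNAs were. They are few, and the filter on low counts favours those that are high in ESC. On pausing of ESC 0 of the 7 were called (27.7% of all), with 1 at an unadjusted p under 0.05 by edgeR, and on pausing of TSC 1 was called lower, miR-337-3p (17% of all).

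Within ESC the cluster was led by miR-376b-3p and, by group mean, miR-376c-3p, 3p arms of a family whose described targets include autophagy genes and receptors of TGF-beta type signalling. miR-376b-3p was the most abundant member of every ESC library, at 5096 and 7796 CPM in control ESC, 5324 and 4780.3 CPM in paused ESC, 1476 and 489.5 CPM in control TSC and 126 and 123 CPM in paused TSC. The control and paused ESC libraries overlapped, and the 2 paused TSC libraries lay far below the rest. miR-376c-3p stood at 2594 and 4093 CPM in control ESC, 3955 and 4026 CPM in paused ESC, 77.7 and 61.2 CPM in control TSC and 42 and 0 CPM in paused TSC. Against 230 pooled counts of miR-376b-3p in control ESC there were 119 of miR-376c-3p. In control TSC the counts of miR-376b-3p were 114 and 8 and those of miR-376c-3p were 6 and 1. Over both arms, miR-376c made up 6.99% and 10.2% of the cluster's counts in the control ESC libraries and 1.45% and 1.59% in the control TSC libraries. The share of miR-376b, 14.2% and 19.4% in control ESC, was 27.6% in control TSC replicate 1 and 12.7% (8 of 63 counts) in replicate 2, so its order between the cell types depended on the library.

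The pair of hairpins at the start of the cluster gave 4 tested arms. miR-411-3p, the third most abundant member by group mean in both ESC groups, stood at 2363 and 2144 CPM in control ESC, 4107 and 3742 CPM in paused ESC, 233 and 122.4 CPM in control TSC and 0 and 61.4 CPM in paused TSC. miR-379-3p, with the same seed, stood at 1621 and 1559 CPM in control ESC, 2599 and 2201 CPM in paused ESC, 168 and 184 CPM in control TSC and 0 and 30.7 CPM in paused TSC. Both were higher in each paused ESC library than in either control ESC library. miR-379-5p stood at 1066 and 974 CPM in control ESC, 1977 and 2673 CPM in paused ESC, 298 and 61.2 CPM in control TSC and 126 and 92.1 CPM in paused TSC, and miR-411-5p stood at 509.6 and 455 CPM in control ESC, 1217 and 1557 CPM in paused ESC, 90.6 and 61.2 CPM in control TSC and 42 and 0 CPM in paused TSC. For these 5p arms, too, the paused and control ESC libraries did not overlap.

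Of the other abundant members, miR-495-3p stood at 1807 and 2534 CPM in control ESC, 2827 and 2516 CPM in paused ESC, 311 and 184 CPM in control TSC and 42 and 61.4 CPM in paused TSC. miR-300-3p stood at 1807 and 2144 CPM in control ESC, 2332 and 1557 CPM in paused ESC, 518 and 306 CPM in control TSC and 126 and 61.4 CPM in paused TSC. miR-409-3p stood at 1621 and 1494 CPM in control ESC, 2522 and 1839.8 CPM in paused ESC, 129.5 and 122.4 CPM in control TSC and 126 and 61.4 CPM in paused TSC. The control and paused ESC libraries overlapped for miR-495-3p and miR-300-3p and not for miR-409-3p. miR-323-3p stood at 2131 and 1494 CPM in control ESC, 2117 and 1934 CPM in paused ESC, 64.7 and 0 CPM in control TSC and 42 and 30.7 CPM in paused TSC, and miR-541-5p stood at 1575 and 1299 CPM in control ESC, 2066 and 2107 CPM in paused ESC, 90.6 and 122.4 CPM in control TSC and 42 and 30.7 CPM in paused TSC. The TSC values of miR-323-3p are 5, 0, 1 and 1 counts, at the edge of detection.

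Along the locus, abundant and scarce hairpins alternated. The 25 hairpins before Mirg held 70.7% of the cluster's counts in control and 71.4% in paused ESC, and the 13 hairpins inside Mirg held 29.3% and 28.6%. In control TSC the split was 75.4% to 24.6%. Direct neighbours differed widely. miR-376b reached 6436 CPM over both arms in pooled control ESC, while miR-654, just before it, had 0 counts in all 8 libraries and miR-376a, just after it, reached 189 CPM. Across the 35 hairpins with a count in either group, Pearson's r between control and paused ESC was 0.92 on log2(CPM + 10), and across 34 hairpins it was 0.75 between control ESC and control TSC. These are descriptions across hairpins of the same locus, which are not independent and share libraries and depth.

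**Figure D2:**
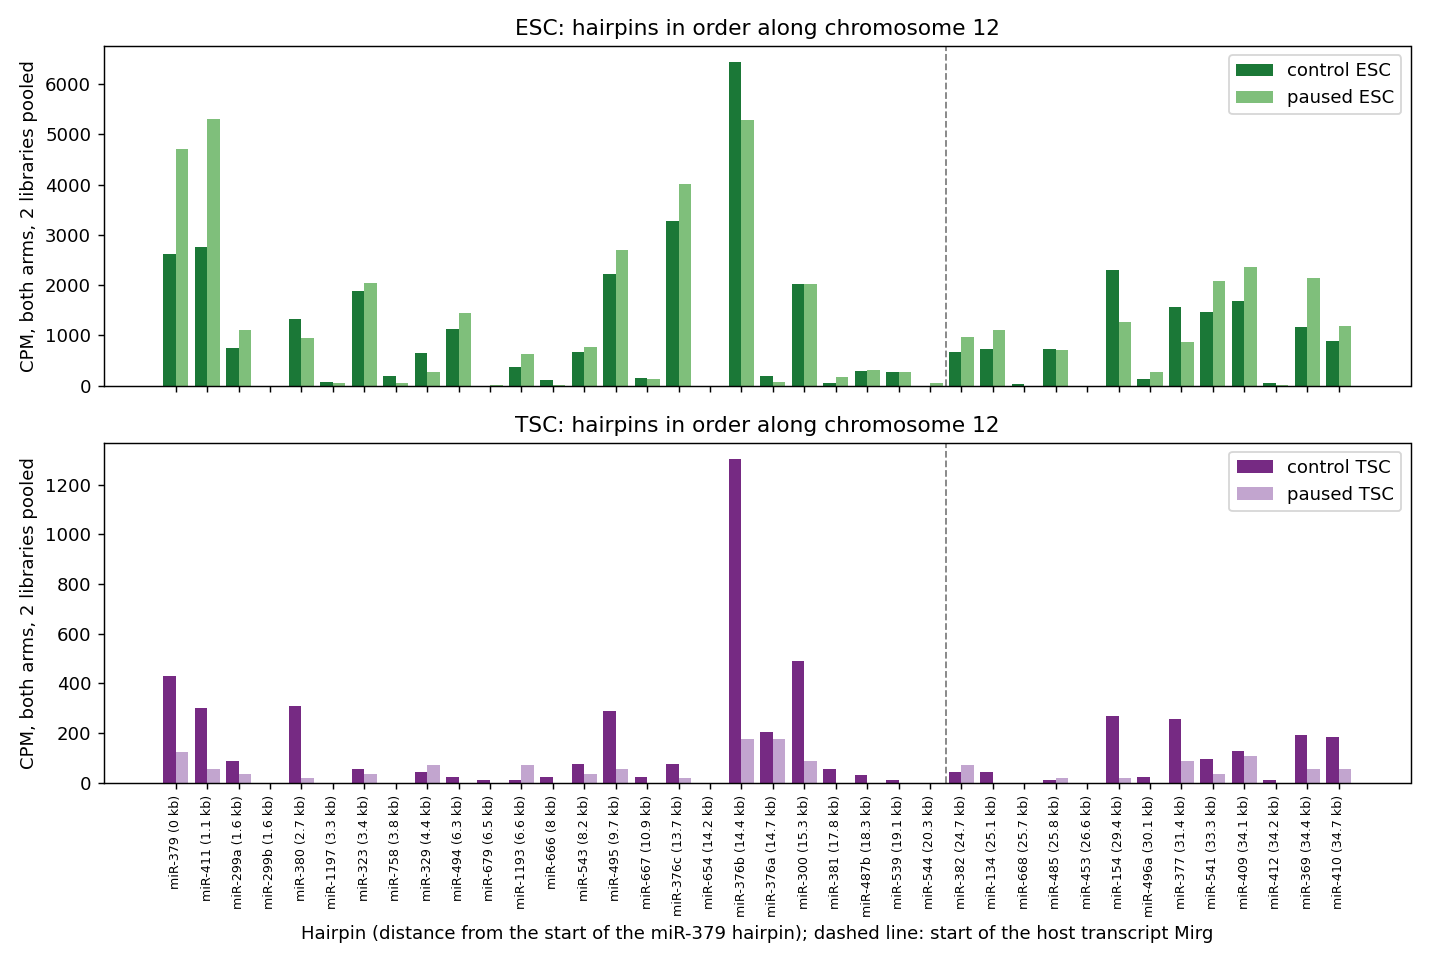
Level of each hairpin (both arms, libraries of a group pooled, in CPM) in chromosomal order, with the distance from the start of miR-379 in brackets; the 2 panels have different vertical scales and the dashed line marks where Mirg begins. The highest bar is miR-376b (6436 CPM) in control ESC and miR-411 (5313 CPM, beside 5292 CPM for miR-376b) in paused ESC. In TSC no hairpin passes 1304 CPM.

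One arm dominated nearly every hairpin. Of the 21 hairpins with at least 50 counts in paused ESC, 17 gave mostly 3p reads and 4 mostly 5p reads. Here the 5p arm held 99.7% of the counts of miR-541, 97.5% of miR-134 and 91.8% of miR-299a, whereas the 3p arm held 100% of miR-323 (290 counts), 99.5% of miR-495 and 99.3% of miR-376c. miR-379 and miR-382 used both arms: the 5p share was 48.6% (exact 95% binomial interval 44.7% to 52.4%) for miR-379 and 67.2% (58.6% to 74.9%) for miR-382. In miR-379 the 5p share was 39.7% and 38.5% in the control ESC libraries and 43.2% and 54.8% in the paused ones. For miR-411 it was 17.7% and 17.5% in control and 22.9% and 29.4% in paused ESC. For both hairpins the libraries of the 2 groups did not overlap, yet the intervals of the pooled shares did (29.4% to 49.6% against 44.7% to 52.4% for miR-379, 10.8% to 26.45% against 22.7% to 29.0% for miR-411). Among the 11 hairpins with at least 50 counts in control ESC, miR-495 did not overlap either, in the other direction. Its 5p share was 7.14% and 2.50% in control and 0.889% and 0% in paused ESC. The remaining hairpins overlapped or tied. The difference in arm use was not tested.

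**Figure D3:**
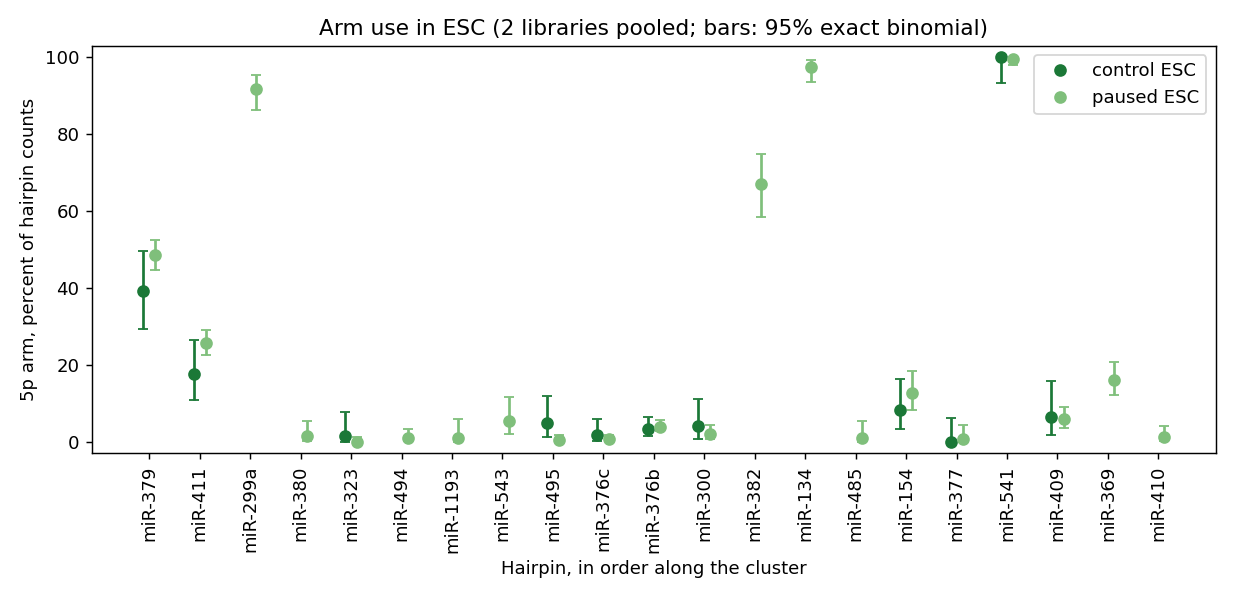
Share of each hairpin's counts on its 5p arm in control and paused ESC, in percent, for hairpins with at least 50 counts in the group (points are 2 libraries pooled, bars are exact 95% binomial intervals). Most points lie near 0, miR-541, miR-134 and miR-299a lie above 90%, and miR-379 and miR-382 lie nearest the middle of the range.

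Set against control TSC, all 26 tested members were higher in control ESC (edgeR quasi-likelihood test, Benjamini-Hochberg adjusted p under 0.05, here and for every call), where 33.5% of the 206 miRNAs tested were called higher, 40.8% lower and 74.3% in either direction. In the paused state all 26 were again higher in ESC, against 37.4% of all tested (39.3% lower, 76.7% in either direction). These counts say nothing of the direction by themselves: 23 members passed the filter in both control ESC libraries, 23 in both paused ESC libraries, 1 in both control TSC libraries and 0 in both paused TSC libraries, so members could enter the test almost only by being high in ESC. The same holds for overlap: both control ESC libraries lay above both control TSC libraries for all 26 (39.3% of all tested miRNAs), and likewise in the paused state (45.1% of all). The median log2 difference over the 26 was 3.34 between control cells and 5.40 between paused cells, beside −0.23 and 0.02 over all tested miRNAs. The same filter favours high medians of the members, so these say nothing of the direction by themselves either. In paused TSC 20 of the 26 had 3 or fewer counts, so the 5.40 rests largely on fitted values near the floor. Other scalings moved the median of all tested miRNAs by up to 0.63 and 0.68 and left all 26 called higher. With no filter, when 65 members entered, 31 were called higher in control ESC and 0 lower, and 35 were higher and 1, miR-376a-3p, lower in paused ESC. The shares of counts above need no filter.

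The size of the difference between the cell types varied among members. Among the 21 tested members with more than 3 counts in control TSC, the log2 difference between control cells ran from 2.10 for miR-379-5p (SE 0.51, adjusted p = 0.000112) to 5.42 for miR-376c-3p (SE 0.56, adjusted p = 1.31e-19). With no filter 24 members had more than 3 counts there, and the 3 added lay lower, at 1.97 for miR-154-5p (adjusted p = 0.137), 0.27 for miR-381-3p (adjusted p = 1) and −1.56 for miR-376a-3p (adjusted p = 0.308). In pooled counts per scaled library size, miR-376c-3p was 43.0-fold higher in control ESC (95% counting interval 20.2 to 109), whereas miR-376b-3p was 4.77-fold higher (3.81 to 5.99). Pooling gives most weight to control TSC replicate 1, which held 413 cluster counts beside 63 in replicate 2. Against replicate 2 alone, miR-376b-3p was 12.7-fold higher (6.34 to 29.8, 8 counts in TSC) and miR-376c-3p 52.6-fold (9.26 to 2095, 1 count), and these intervals overlap. The separation of this pair therefore rested on replicate 1.

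Several members that were well counted in ESC had almost no counts in TSC. miR-494-3p stood at 973 and 1364 CPM in control ESC, 1496 and 1352 CPM in paused ESC, 25.9 and 0 CPM in control TSC and 0 and 0 CPM in paused TSC, with 2 counts in all 4 TSC libraries. miR-134-5p, known in stem cells for repressing Nanog and in neurons for limiting dendritic spines, stood at 602 and 845 CPM in control ESC, 1027 and 1132 CPM in paused ESC, 38.8 and 61.2 CPM in control TSC and 0 and 0 CPM in paused TSC. In the paused state these were at least 26.9-fold and at least 20.2-fold higher in ESC, counted against a floor of 3 counts over the paused TSC group. miR-485-3p stood at 1019 and 325 CPM in control ESC, 786 and 598 CPM in paused ESC, 12.9 and 0 CPM in control TSC and 42 and 0 CPM in paused TSC. miR-487b-3p stood at 232 and 389.8 CPM in control ESC, 406 and 220.1 CPM in paused ESC, 25.9 and 61.2 CPM in control TSC and 0 and 0 CPM in paused TSC. Both had 0 or 1 counts in each TSC library but one, where miR-487b-3p had 2.

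Of the members around them, miR-299a-5p stood at 834 and 519.7 CPM in control ESC, 989 and 1054 CPM in paused ESC, 64.7 and 0 CPM in control TSC and 0 and 61.4 CPM in paused TSC. miR-543-3p stood at 695 and 585 CPM in control ESC, 748 and 692 CPM in paused ESC, 51.8 and 122.4 CPM in control TSC and 42 and 30.7 CPM in paused TSC, and miR-1193-3p at 371 and 389.8 CPM in control ESC, 709.8 and 519 CPM in paused ESC, 12.9 and 0 CPM in control TSC and 126 and 30.7 CPM in paused TSC. miR-329-3p, which shares its seed ACACACC with miR-362-3p of another locus, stood at 695 and 455 CPM in control ESC, 241 and 267 CPM in paused ESC, 12.9 and 122.4 CPM in control TSC and 0 and 92.1 CPM in paused TSC. That seed was carried differently by the cell types: 22 counts in control ESC were miR-329-3p and 4 were miR-362-3p, whereas control TSC had 3 and 65. miR-382-5p stood at 463 and 649.6 CPM in control ESC, 596 and 708 CPM in paused ESC, 51.8 and 0 CPM in control TSC and 84 and 30.7 CPM in paused TSC. Of these, miR-329-3p came closest between the cell types, at 241 CPM in its lowest ESC library and 122.4 CPM in its highest TSC library.

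At the far end of the cluster, miR-369-3p, one of the miRNAs that have been used to reprogram somatic cells, stood at 788 and 1039 CPM in control ESC, 1901 and 1667 CPM in paused ESC, 181 and 0 CPM in control TSC and 0 and 92.1 CPM in paused TSC. Its other arm, miR-369-5p, stood at 185 and 389.8 CPM in control ESC, 469 and 189 CPM in paused ESC, 51.8 and 0 CPM in control TSC and 0 and 0 CPM in paused TSC. miR-410-3p, the last hairpin, stood at 1066 and 585 CPM in control ESC, 1331 and 991 CPM in paused ESC, 155 and 306 CPM in control TSC and 0 and 92.1 CPM in paused TSC. Each of these had 0 counts in at least 1 TSC library. miR-377-3p stood at 1529 and 1624 CPM in control ESC, 799 and 928 CPM in paused ESC, 259 and 245 CPM in control TSC and 126 and 61.4 CPM in paused TSC, miR-154-3p at 1807 and 2534 CPM in control ESC, 1153 and 1069 CPM in paused ESC, 233 and 61.2 CPM in control TSC and 0 and 0 CPM in paused TSC, and miR-380-3p at 1251 and 1429 CPM in control ESC, 989 and 849 CPM in paused ESC, 375.5 and 0 CPM in control TSC and 0 and 30.7 CPM in paused TSC. In these, and in miR-329-3p, both paused ESC libraries lay below both control ESC libraries. Of the 26 tested members that was so for 4 (34% of all tested miRNAs), and for 10 both paused ESC libraries lay above (34.5% of all).

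One member went against the rest. miR-376a-3p had 1 and 2 counts in the control ESC libraries and 1 and 0 in the paused ones. In TSC it had 2 and 14 in the control and 8 and 1 in the paused libraries. It failed the filter and was singled out after its values were seen. With no filter it was 3.81 lower on the log2 scale in paused ESC than in paused TSC (SE 1.17, adjusted p = 0.00467), and it was not called between control cells (adjusted p = 0.308). The TSC libraries differed on it: 14 counts among 18725 in one control library stand beside 2 among 115492 in the other. With 3 differing bases it is close to miR-376b-3p, which had 114 counts in the library where miR-376a-3p had 2, and 8 in the library where it had 14.

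Pausing of ESC changed 3 members while the share of the whole cluster in all counts overlapped between control and paused cells. That overlap depended on miR-376b-3p and on the denominator. Without miR-376b-3p the shares were 3.59% and 3.81% in control and 4.47% and 3.98% in paused ESC. Without miR-376c-3p they still overlapped (3.87% and 4.23% against 4.62% and 4.05%). Of counts outside the miR-290 to miR-295 cluster, the whole cluster held 11.75% and 12.4% in control and 14.5% and 12.8% in paused ESC. Of the 26 tested, 2 were called higher (8.25% of all tested miRNAs were) and 1 lower (19.4% of all). The higher ones were the 5p arms of the opening pair of hairpins, which share the stretch GUAGAC in the seed: miR-411-5p (log2 fold change 1.50 ± 0.44 SE, adjusted p = 0.00359) and miR-379-5p (1.18 ± 0.41 SE, adjusted p = 0.0203). The member called lower was miR-154-3p (−0.95 ± 0.37 SE, adjusted p = 0.0374), from inside Mirg. The share of members called, 3 of 26, was below that of all tested miRNAs (27.7%). By DESeq2 0 members were called, and 7 had an unadjusted p under 0.05 by edgeR. The split of 2 higher and 1 lower depended on the scaling: it was 4 and 0 when libraries were scaled by the median of ratios, 2 and 2 by total count, 2 and 0 when TMM left out the miR-290 to miR-295 cluster and 3 and 0 when it left out the members, which moved the median of all tested miRNAs by 0.14, −0.10, 0.06 and 0.26. The blood list moved beside these calls: miR-142a-5p stood at 3799 and 5847 CPM in control and 317 and 173 CPM in paused ESC, and miR-150-5p at 2502 and 1429 CPM in control and 4817 and 4387 CPM in paused ESC. Of the ESC marker list, miR-302b-3p went from 509.6 and 1104 CPM in control to 38.0 and 0 CPM in paused ESC. The part of these markers in the result was not tested.

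The members that were not called lay on both sides of zero. The median over the 26 was 0.30 beside −0.03 over all tested, with 19 values above zero and 7 below. The 3p arms of the same opening pair had positive values, 0.80 for miR-411-3p (adjusted p = 0.0979) and 0.59 for miR-379-3p (adjusted p = 0.28). miR-369-3p came near the threshold at 0.98 (adjusted p = 0.0505), as did miR-377-3p at −0.87 (adjusted p = 0.0647). Over whole hairpins in pooled counts, miR-411 went from 2758 to 5313 CPM and miR-379 from 2623 to 4709 CPM, while miR-154 went from 2299 to 1277 CPM and miR-377 from 1569 to 863 CPM.

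These calls differ in how much they rest on the processing. The other settings counted here include every deposited file as a library, which enters the duplicates again, so calls kept there add no support. miR-411-5p was called in all 8 fits that left out 1 library and in 10 of 11 other settings, the exception being DESeq2 (adjusted p = 0.0834). miR-379-5p was lost without control replicate 1 (adjusted p = 0.0528), control replicate 2 (0.0687) or paused replicate 2 (0.0589), by DESeq2 (0.0823) and with a replicate block within cell type (0.0898). miR-154-3p was called in 1 of the 8 fits with a library left out and in 3 of 11 other settings, and was lost when TMM was computed without the cluster's own members (−0.73, adjusted p = 0.223). The count of members called was 1 without either control ESC replicate and 5 without control TSC replicate 1.

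**Figure D4:**
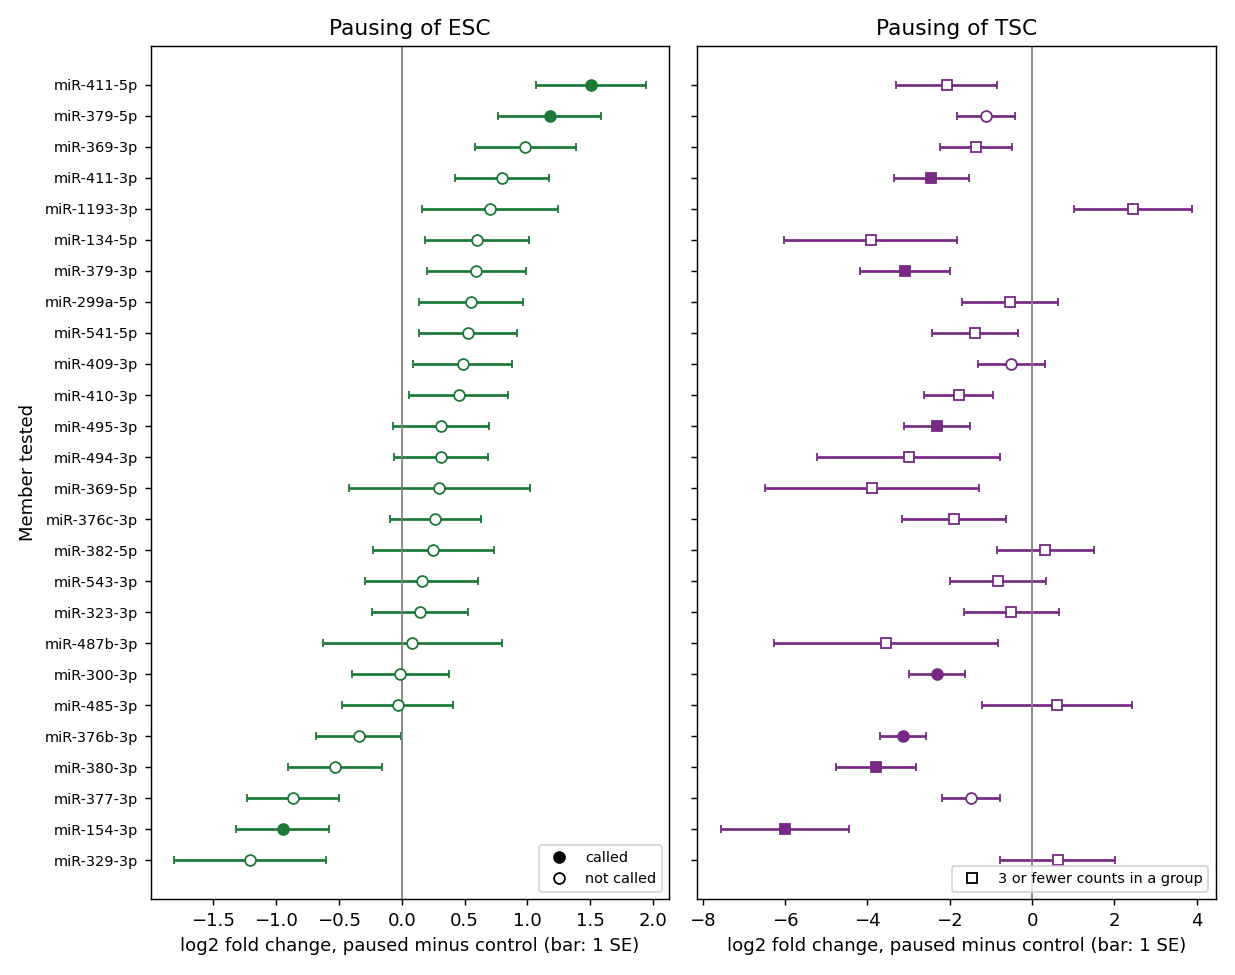
Log2 fold change on pausing (paused minus control) of the 26 tested members in ESC and in TSC, ordered by the ESC value. Bars are 1 SE, derived from the F statistic of the test. Filled symbols were called and squares had 3 or fewer counts in a group. The horizontal scales differ: ESC values lie between −1.21 and 1.50 and TSC values between −6.01 and 2.45.

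Pausing of TSC went with a lower level of the cluster. Its share was 2.35 times smaller in paused than in control TSC, and 3.22 times smaller on the TMM scale. Of the 26 tested members, 7 were called lower, where 17% of all tested miRNAs were, and 0 were called higher (1.94% of all). The 7 were miR-154-3p, miR-300-3p, miR-376b-3p, miR-379-3p, miR-380-3p, miR-411-3p and miR-495-3p, all of them 3p arms, as are 19 of the 26 tested. The median over the members was −1.84 beside −0.39 over all tested. With the total count alone these were −1.31 and 0.08, a shift of 0.47 for all miRNAs, and 3 members were called lower in place of 7. It was 4 with median-of-ratios factors and 3 when TMM left out the members, with all tested miRNAs moved by 0.24 and 0.36. Both paused libraries lay below both control libraries for 14 of the 26 (35.9% of all tested) and above for 1, miR-1193-3p (12.6% of all). The TSC marker list was lower in the same libraries, at 10.1% and 11.3% of counts in control and 5.75% and 7.62% in paused TSC, and its part in the result was not tested.

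miR-376b-3p had the best counted change: 114 and 8 counts in control TSC against 3 and 4 in paused TSC, a log2 fold change of −3.13 ± 0.56 SE (adjusted p = 9.04e-07; DESeq2 adjusted p = 0.00105). miR-300-3p had 40 and 5 counts against 3 and 2, a log2 fold change of −2.31 ± 0.68 SE (adjusted p = 0.00888). In both, the lower control library still lay above both paused libraries. With control TSC replicate 2 as the only control library, the control level was 3.94 times the paused level for miR-376b-3p (95% counting interval 1.25 to 12.8) and 3.45 times for miR-300-3p (0.794 to 15.0). The other 5 had 3 or fewer counts in paused TSC, so only a bound or a ratio of pooled counts can be given. For miR-154-3p, 19 counts against 0 put the level in paused cells at least 3.82-fold lower. Scaled for library size, pooled counts in control TSC exceeded those in paused TSC by a factor of 17.5 for miR-380-3p (95% counting interval 2.90 to 714), 9.64 for miR-379-3p (1.50 to 404), 6.03 for miR-411-3p (1.46 to 53.2) and 5.42 for miR-495-3p (1.67 to 27.9).

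This result rests on few counts and on single libraries. In paused TSC 20 of the 26 tested members had 3 or fewer counts. Without control TSC replicate 1, which supplied 413 of the 476 cluster counts of its group, 0 members were called and miR-380-3p changed sign (2.59, adjusted p = 0.748), where control replicate 2 had 0 counts of it. Without paused TSC replicate 2 the count was also 0, and without paused TSC replicate 1 it was 1, miR-376b-3p. It was 3 without either library of control ESC or of paused ESC, and 4 without control TSC replicate 2. miR-376b-3p was called in 6 of the 8 fits with a library left out (adjusted p = 0.229 without control TSC replicate 1 and 0.0543 without paused TSC replicate 2). miR-379-3p, miR-411-3p and miR-495-3p were called in 0 of the 8. DESeq2 called miR-376b-3p and miR-154-3p (adjusted p = 0.0498) and none of the other 5. The share of counts was lower whichever control library is taken, 0.358% or 0.336% beside 0.161% and 0.134% in paused TSC.

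The effect of pausing differed between the cell types for part of the cluster. In the test of the difference of the pause effects, ESC minus TSC, 9 of the 26 were called higher (14.6% of all tested miRNAs were) and 0 lower (11.7% of all). The median difference was 2.30 beside 0.33 over all tested, and 1.65 beside −0.26 with the total count alone. In paused TSC 20 of the 26 had 3 or fewer counts, so these medians of the members rest largely on fitted values near the floor. The 9 were the 7 arms lower in paused TSC together with miR-379-5p and miR-411-5p, the pair called higher in paused ESC. For miR-376b-3p the effect was −0.34 in ESC and −3.13 in TSC, a difference of 2.79 ± 0.68 SE (adjusted p = 0.000517), and for miR-411-3p it was 0.80 and −2.45, a difference of 3.24 ± 0.98 SE (adjusted p = 0.00743). These 2 were also called by DESeq2 (adjusted p = 0.00865 and 0.0468), but miR-411-3p had only 2 counts in paused TSC. The other 7 were not called by DESeq2. Without control TSC replicate 1 the count fell to 0, and it was 1 without paused ESC replicate 1, 2 without either paused TSC replicate and 3 without control ESC replicate 1.

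miR-379-3p and miR-411-3p, which carry the same seed, can be read as 1 pool. Their summed level was 3984 and 3703 CPM in control ESC, 6705 and 5944 CPM in paused ESC, 401 and 306 CPM in control TSC and 0 and 92.1 CPM in paused TSC. The pool was higher in each paused ESC library and lower in each paused TSC library than in either control library of its cell type. As shares of the cluster, the miR-379 hairpin went from 6.74% to 10.4% and the miR-411 hairpin from 7.09% to 11.7% on pausing of ESC, while miR-376b went from 16.5% to 11.7% and miR-154 from 5.91% to 2.81%. In paused ESC the miR-411 and miR-376b hairpins thus held near-equal shares.

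Depth bears on how many members could be seen. A count was found for 49 and 45 members in control and 58 and 51 in paused ESC, and for 39 and 21 in control and 18 and 23 in paused TSC. At the depth of the shallowest library, 13607 counts, 45.6 and 45.0 members would be expected in control and 42.2 and 39.9 in paused ESC, and 18.4 and 18.5 in control and 13.1 and 14.0 in paused TSC. At equal depth both ESC groups showed more members than both TSC groups, and in each cell type the control libraries showed more than the paused ones. For a member with 0 counts in a paused TSC library, the limit that a count of 0 allows (3 counts) was 126 CPM in replicate 1 and 92.1 CPM in replicate 2.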

How the data were processed

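Mature miRNAs were counted in 12 samples of cultured mouse ESC and TSC. The authors deposited raw counts, 1 whole number per mature miRNA for 1978 miRNAs, on the mouse build GRCm38, which the submitters' processing notes name. Which aligner and counter made them, and how reads with several matches were handled, is not given in the sources used here. Per the labels' protocols, libraries were made from small RNA with a SMARTer kit and amplified by PCR, and no molecular identifiers are named. Replicate 3 is identical to replicate 2 in every group, which leaves 8 libraries.

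The test was edgeR 4.0.16 (R 4.3.3), with TMM scaling, in which 206 miRNAs passed filterByExpr (at least 10 counts at the median depth, about 369 CPM, in 2 libraries). The quasi-likelihood fit took all groups at once with a mean for each (4 residual degrees of freedom, common dispersion 0.0456), with two-sided tests and Benjamini-Hochberg adjustment over the 206. A miRNA was called at an adjusted p under 0.05. The SE given with a log2 value is that value, without its sign, divided by the root of the test's F statistic. It was thus derived from the test and is not a directly estimated standard error. Each miRNA's own spread was replaced by the common trend (infinite prior degrees of freedom). CPM are scaled with the TMM factors. A fold against a group at 0 is a bound set by a floor of 3 counts over the group. Ratios of pooled counts carry exact 95% counting intervals. The fit was also run on counts simulated with the same dispersion, 0.0456, for every miRNA. Such a run cannot show how the test behaves where libraries disagree on a single miRNA. Values in every library are given for each member called in any comparison and for the 10 most abundant, and other members by range and count.

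Hairpin coordinates and sequences are from RefSeq GRCm38.p6 and gene annotation from GENCODE M21. The members and lists were chosen with earlier results of these data known. The alternatives were DESeq2 1.42.0, other scalings, other filters, every deposited file as a library, only the groups compared, replicate blocks and each library left out in turn.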

Additional observations from a re-analysis of the deposited data

Results flagged for a closer look

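For 9 members the effect of pausing differed between ESC and TSC by the test of the difference itself (edgeR quasi-likelihood interaction contrast, ESC minus TSC, log2, Benjamini-Hochberg adjusted p over 206 miRNAs). All 9 differences were positive, that is, the value in ESC lay above that in TSC. Of all 206 miRNAs tested, 14.6% were called higher and 11.7% lower in the same test. By DESeq2 only 2 of the 9 were called.

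miR-376b-3p differed by 2.79 ± 0.68 SE (adjusted p = 0.000517), and it is the one with the most counts in TSC. For the opening pair of hairpins all 4 arms were on the list. miR-379-5p differed by 2.31 ± 0.81 SE (adjusted p = 0.0231) and miR-379-3p by 3.67 ± 1.16 SE (adjusted p = 0.0109). miR-411-5p differed by 3.58 ± 1.27 SE (adjusted p = 0.0244) and miR-411-3p by 3.24 ± 0.98 SE (adjusted p = 0.00743).

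The other 4 lie further along the cluster. miR-380-3p differed by 3.25 ± 1.10 SE (adjusted p = 0.0191), miR-495-3p by 2.63 ± 0.90 SE (adjusted p = 0.0195), miR-300-3p by 2.29 ± 0.79 SE (adjusted p = 0.0209) and miR-154-3p by 5.06 ± 1.77 SE (adjusted p = 0.0231). miR-154-3p had 0 counts in both paused TSC libraries, so its fitted difference depends on the prior count and is no bound. Over both paused TSC libraries miR-379-3p, miR-380-3p and miR-411-5p had 1 count each, miR-411-3p had 2 and miR-495-3p had 3. The sizes of their differences are therefore poorly determined too. None of the 9 was called without control TSC replicate 1.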

How the results depend on the processing

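All 26 tested members stayed higher in ESC under every scaling, and the counts of members called were 19 to 32 between control cells and 25 to 37 between paused cells over all alternatives (leaving out 1 library: 24 to 27 and 25 to 28). With counts outside the miR-290 to miR-295 cluster as the denominator, the mean shares were 12.1% and 13.7% for control and paused ESC and 0.727% and 0.357% for control and paused TSC, in place of 4.42%, 4.76%, 0.347% and 0.148%. The pausing counts were less stable, and the cause was not tested. For pausing of ESC (3 called) the count was 0 by DESeq2, 10 with every deposited file as a library and 7 with only the groups compared, and 1 to 5 with 1 library left out. For pausing of TSC (7 called) it was 4 with median-of-ratios scaling, 3 with the total count alone, 3 with TMM without the members, 2 by DESeq2, 2 with no filter and 0 to 4 with 1 library left out. With only the TSC groups compared, 1 member passed the filter and it was called, so that 1 stands against 1 tested and not 26. For the difference of the pause effects (9 called) it was 3 with the total count alone, 5 with TMM without the members, 2 by DESeq2, 2 with no filter and 0 to 10 with 1 library left out. Without control TSC replicate 1, miR-380-3p changed sign in TSC (2.59) and in the difference (−3.03); over all left-out libraries its values ran from −6.22 to 2.59 and from −3.03 to 5.94. The labels do not say whether replicate numbers pair the samples. The correlation of same-numbered deviations was −0.071 in ESC and −0.183 in TSC, which cannot decide it with 2 libraries in each group. With the replicate number as a block, 2 members were called for pausing of ESC, 4 for pausing of TSC and 8 for the difference, and with a replicate block within each cell type 1, 1 and 2. With the TSC numbers crossed in the replicate block, chosen after seeing the data, 4 were called for pausing of TSC. Most members had 3 or fewer counts in paused TSC, so depth limits every comparison with that group.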
